A study of Homo sapiens with 17 samples.

Results

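A group of 10 integrin subunit genes was followed in newly made RNA: ITGAV, which encodes the αv subunit, the 5 genes whose β subunits pair with αv (ITGB1, ITGB3, ITGB5, ITGB6 and ITGB8), and 4 genes for other α subunits (ITGA2, ITGA3, ITGA5 and ITGA6). They were taken from a fixed list of Ensembl identifiers, which was chosen with earlier results of these data known. All 10 members are among the 19867 genes of the count table. The files do not pair identifiers with symbols, so the 10 symbols are those that came with that list. The cells were SNU-761, an established human line labelled as liver carcinoma and as wild type in genotype. Each library came from 1 of 2 experiments on this line, so no result below extends beyond it. In the first, cells received VT107, an inhibitor of all TEAD transcription factors, at 2.15 µM or 0.1 µM, or DMSO, the solvent, with 2 libraries per group. In the second, cells received intetumumab, an antibody against ITGAV supplied as a biosimilar sold against ITGAV with ITGB3, at 5 µg/ml or 1.5 µg/ml, or a human myeloma IgG1 kappa isotype control at 5 µg/ml, with 3 libraries per group. All 15 of these libraries came from cells given thiouridine and collected at 4 h of treatment. Each experiment also had 1 library from cells that got no thiouridine.

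In SLAM-seq, thiouridine taken up by cells enters new transcripts, and after treatment with iodoacetamide it pairs as C does, so that the read shows C where the gene has T. The values are raw counts of reads assigned to newly made RNA, so they follow synthesis of an RNA more closely than its stock in the cell, and they say nothing of protein at the cell surface. The labelled libraries held 435343 to 1778876 counts each, and the shallowest was replicate 1 of intetumumab 5 µg/ml. The unlabelled libraries held 10702 counts (VT107 experiment) and 4553 counts (intetumumab experiment). The labels do not say whether the libraries of a group were separate cultures, and the p-values below then reflect no more than the scatter of these libraries, which may be technical. These are bulk samples, in which fewer cells of a kind and less new RNA per cell cannot be told apart.

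Integrins are membrane receptors built from 1 α and 1 β subunit, and they tie the cytoskeleton to the extracellular matrix. The αv integrins recognise the RGD sequence in vitronectin, fibronectin, osteopontin and the latency peptide of TGF-β, and αvβ6 and αvβ8 are known as activators of latent TGF-β. The β1 subunit also pairs with α2 to bind collagen, with α3 and α6 to bind laminins, and with α5 to bind fibronectin. TEAD factors bind DNA and recruit the coactivators YAP and TAZ, whose activity is known to follow cell adhesion and matrix stiffness. The TEAD inhibitor thus acts in the nucleus and the antibody at the cell surface, and the comparisons ask what each does to the new RNA of these subunits within 4 h.

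The 250 bases before the annotated start of 4 members are shown, because 2 of them hold the TEAD core motif and the other 2 are the antibody's target and the member with the largest difference under VT107. They are from RefSeq on GRCh38.p14 and run 5′ to 3′ on the gene's strand. ITGB1 lies on the minus strand (window chr10:32958231-32958480) and ITGA5 on the minus strand (window chr12:54419267-54419516). ITGAV lies on the plus strand (window chr2:186589806-186590055) and ITGA2 on the plus strand (window chr5:52989102-52989351). Capitals mark GGAATG or its reverse complement.
ITGB1: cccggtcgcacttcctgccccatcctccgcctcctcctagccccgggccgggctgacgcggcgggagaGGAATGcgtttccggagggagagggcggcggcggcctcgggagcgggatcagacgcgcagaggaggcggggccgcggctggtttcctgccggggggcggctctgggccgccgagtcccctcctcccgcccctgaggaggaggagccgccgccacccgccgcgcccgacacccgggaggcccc
ITGA5: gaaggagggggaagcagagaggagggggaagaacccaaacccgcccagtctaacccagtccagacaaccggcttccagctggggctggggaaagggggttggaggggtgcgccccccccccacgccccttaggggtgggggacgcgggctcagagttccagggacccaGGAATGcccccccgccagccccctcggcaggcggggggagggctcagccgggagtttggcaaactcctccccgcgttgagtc
ITGAV: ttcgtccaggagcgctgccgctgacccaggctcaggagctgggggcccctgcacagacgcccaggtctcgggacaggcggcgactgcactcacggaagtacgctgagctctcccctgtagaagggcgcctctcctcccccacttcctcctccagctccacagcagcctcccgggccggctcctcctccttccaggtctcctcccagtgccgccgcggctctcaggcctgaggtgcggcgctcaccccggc
ITGA2: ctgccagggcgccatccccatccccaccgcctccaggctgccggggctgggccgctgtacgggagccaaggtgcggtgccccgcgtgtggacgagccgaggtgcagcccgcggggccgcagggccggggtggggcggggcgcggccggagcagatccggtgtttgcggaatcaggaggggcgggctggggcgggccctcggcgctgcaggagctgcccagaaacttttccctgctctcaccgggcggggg
The first base of the motif stood 182 bases before the start in ITGB1 and 82 bases before it in ITGA5. RefSeq listed 13 such windows for 8 of the members (all but ITGA3 and ITGB3). ITGB1 and ITGAV each had another start, whose window held no GGAATG on either strand and is not shown. GGAATG, searched on both strands, was in 2 of the 13, and the AP-1 motif TGANTCA, also searched on both strands, was in 0. Among all 35116 windows of this length, 4175 (11.9%) held GGAATG and 2308 (6.57%) held TGANTCA. A match is a description of the letters and not of a bound site.

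ITGAV (ENSG00000138448; chromosome 2, 186590056 to 186680901, GRCh38.p14) was well represented in the new RNA of all 15 labelled libraries. Levels are given as counts per 1000000 (CPM), scaled within each experiment with the trimmed mean of M-values (TMM). At 2.15 µM VT107 ITGAV stood at 193 and 248 CPM, at 0.1 µM at 294 and 214 CPM, and in DMSO at 283 and 264 CPM. Both libraries at 2.15 µM were below both DMSO libraries, while those at 0.1 µM fell on either side of them. Under intetumumab ITGAV stood at 198, 174 and 220.3 CPM at 5 µg/ml and at 129, 118 and 259 CPM at 1.5 µg/ml, against 220.1, 213 and 238 CPM with the isotype control. The ranges overlapped at both antibody doses, and replicate 3 at 1.5 µg/ml was the highest of the 9 libraries. In rank, the mean level of ITGAV was at the 94.4th percentile of the 13575 genes with a count in the VT107 experiment and at the 91.8th percentile of the 13493 in the intetumumab experiment.

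The fold change of ITGAV did not pass the test for either agent at any dose. The log2 fold change was -0.32 ± 0.25 (SE) at 2.15 µM VT107 against DMSO, with a 95% interval of -0.89 to 0.26 (edgeR's quasi-likelihood test, adjusted p = 0.702). At 0.1 µM it was -0.11 with an interval of -0.69 to 0.48 (edgeR's quasi-likelihood test, adjusted p = 0.909), and 0.0015 when libraries were scaled by total count instead. With 5 µg/ml intetumumab against the isotype it was -0.18 with an interval of -0.75 to 0.40, and with 1.5 µg/ml it was -0.43 with an interval of -1.01 to 0.14 (edgeR's quasi-likelihood test, adjusted p = 0.887 and 0.947). All p-values here were adjusted by the Benjamini-Hochberg method over every gene tested in the comparison, and called at 0.05. The value at 1.5 µg/ml depended on single libraries, at -0.86 without replicate 3 of that dose and -0.23 without replicate 2. At every dose but 1.5 µg/ml the intervals lay within 1 log2 unit of 0 on both sides.

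Which αv partners were made differed widely between the 5 β genes, and their order by counted reads was led by ITGB1 in every library. QuantSeq reads come from 3′ ends, at about 1 read per transcript copied, so no length scaling was used. The T content near the 3′ end also sets how many reads carry a conversion, so an order between genes is one of counted reads and not of transcripts. Among the counts of the 5 partner genes, ITGB1 made up 80.0% to 90.7% in the 15 libraries, with a median of 87.8%. The β1 subunit also pairs with the other α members, so this share does not give how much of it pairs with αv. The order of ITGB5 and ITGB6 differed between the experiments. In the 6 VT107-experiment libraries ITGB5 made up 4.38% to 6.54% and was above ITGB6, at 0.847% to 3.67%, in each library. In the 9 intetumumab-experiment libraries ITGB5 made up 2.77% to 6.98% and was below ITGB6, at 4.99% to 12.7%, in each library. Over all 15 libraries ITGB8 made up 0.355% to 4.46% with a median of 2.20%, and ITGB3 0% to 0.324%. ITGB1 gave 3.59 to 7.71 counts for each count of ITGAV, with a median of 4.12.

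**Figure D1:**
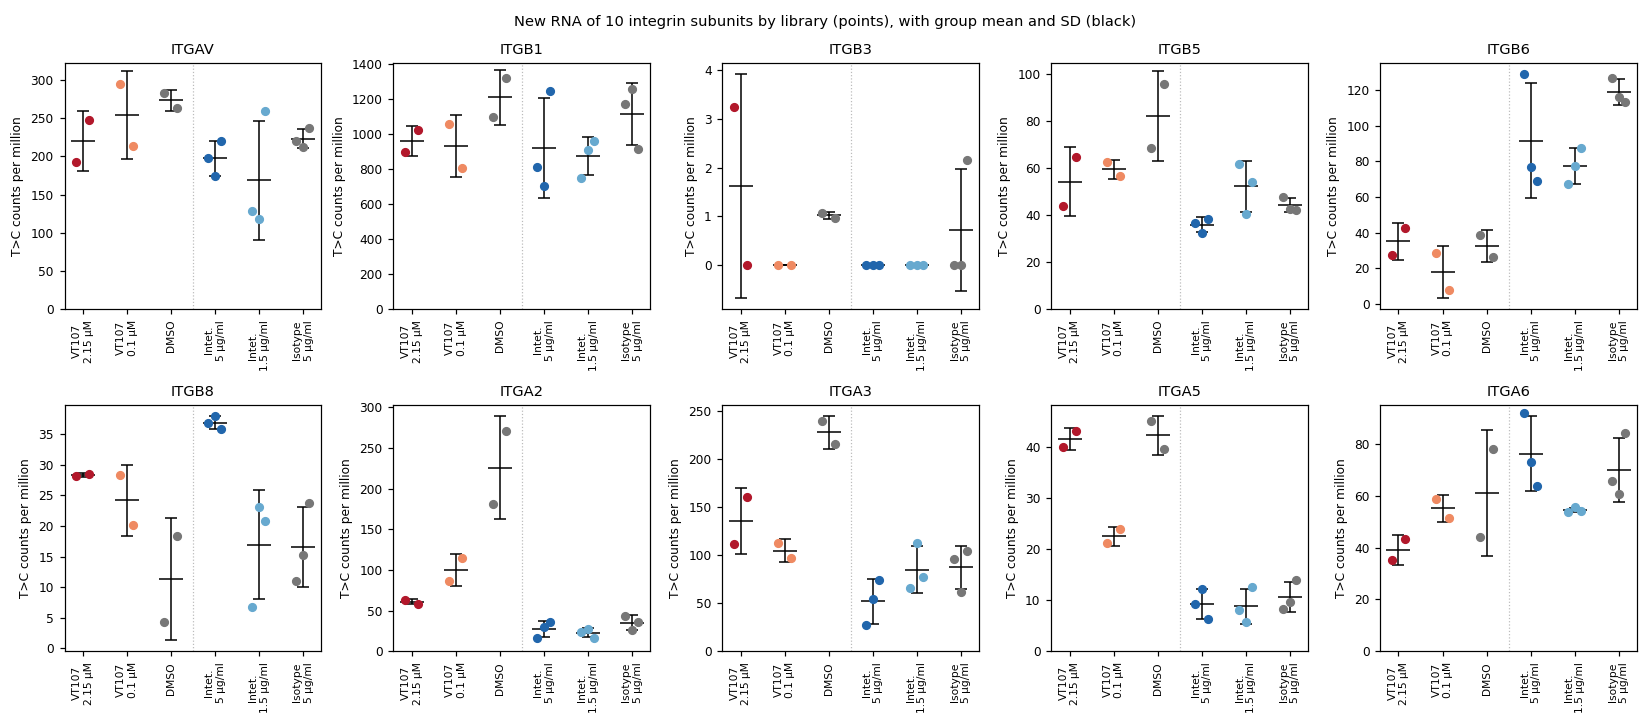
Level of each integrin subunit gene in each labelled library, in CPM on a linear axis of its own per gene, with each experiment scaled on its own and the groups along the horizontal axis. Coloured points are libraries and black bars are the group mean and SD. ITGA2 and ITGA3 lie highest in DMSO, and ITGB8 at 5 µg/ml intetumumab lies above every isotype library.

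ITGB1 (ENSG00000150093; chromosome 10, 32900318 to 32958230), the β subunit shared by all of the members' α subunits, was the member with the most new RNA. At 2.15 µM VT107 it stood at 898 and 1020.3 CPM, at 0.1 µM at 1057 and 805 CPM, and in DMSO at 1096 and 1321 CPM. Both doses were below both DMSO libraries. Intetumumab libraries stood at 811, 702 and 1243 CPM at 5 µg/ml and at 751, 910.3 and 960.3 CPM at 1.5 µg/ml, against 1173, 1257 and 913 CPM with the isotype. These ranges overlapped, since 1 isotype library lay below some antibody libraries. Log2 fold changes of ITGB1 were -0.33 at 2.15 µM (interval -0.78 to 0.11), -0.38 at 0.1 µM (interval -0.82 to 0.07), -0.27 at 5 µg/ml (interval -0.71 to 0.16) and -0.35 at 1.5 µg/ml (interval -0.79 to 0.09), and none passed edgeR's quasi-likelihood test (adjusted p = 0.486 to 0.939).

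ITGB3 (ENSG00000259207; chromosome 17, 47253827 to 47313743), the β subunit known from platelets, endothelium and osteoclasts and named with ITGAV as the antibody's target, was barely detected. It had 6 and 0 counts at 2.15 µM VT107, 0 and 0 at 0.1 µM, and 1 and 1 in DMSO. It had 0 counts in all 6 intetumumab libraries and 0, 0 and 2 in the isotype libraries. The sum over the 15 libraries was 10 counts of 13292467, or 0.752 CPM without further scaling, with an exact Poisson 95% interval of 0.361 to 1.38. In the 11 libraries at 0, a count of 0 allows a level of up to 2.31 to 6.91 CPM, depending on scale and depth. The largest share of ITGB3 among the partners, 0.324% in replicate 1 at 2.15 µM, had a Wilson 95% interval of 0.149% to 0.706%. Such intervals and limits cover counting error only. ITGB3 did not pass the filter on low counts in either experiment, so it has no fold change.

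ITGB5 (ENSG00000082781; chromosome 3, 124761948 to 124901418), the β subunit of a vitronectin receptor, was at a middle level. At 2.15 µM VT107 it stood at 43.8 and 64.8 CPM, at 0.1 µM at 62.4 and 56.5 CPM, and in DMSO at 68.7 and 95.7 CPM. All 4 VT107 libraries were below both DMSO libraries. Intetumumab libraries stood at 36.9, 32.5 and 38.4 CPM at 5 µg/ml and at 61.9, 40.5 and 54.3 CPM at 1.5 µg/ml, against 47.8, 42.8 and 42.1 CPM with the isotype. The libraries at 5 µg/ml were all below the isotype libraries, by little, and those at 1.5 µg/ml overlapped with them. For ITGB5 the log2 fold change was -0.60 at 2.15 µM (interval -1.43 to 0.22) and -0.30 at 5 µg/ml (interval -0.92 to 0.32), and neither passed edgeR's quasi-likelihood test (adjusted p = 0.588 and 0.790).

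ITGB6 (ENSG00000115221; chromosome 2, 160099671 to 160200272), an epithelial β subunit that pairs with αv alone, was lower in every VT107-experiment library than in every intetumumab-experiment library. At 2.15 µM VT107 it stood at 27.6 and 42.4 CPM, at 0.1 µM at 28.3 and 7.54 CPM, and in DMSO at 38.6 and 26.1 CPM. These groups overlapped, and replicate 2 at 0.1 µM was the lowest. Intetumumab libraries stood at 129, 77.1 and 69.2 CPM at 5 µg/ml and at 67.3, 77.6 and 87.7 CPM at 1.5 µg/ml, against 127, 116 and 113 CPM with the isotype. All 3 libraries at 1.5 µg/ml and 2 of 3 at 5 µg/ml were below every isotype library, while replicate 1 at 5 µg/ml, the shallowest library, was above them. At 1.5 µg/ml the log2 fold change was -0.62 ± 0.26 (SE) with an interval of -1.19 to -0.06, an unadjusted p of 0.0331 and an adjusted p of 0.899 by edgeR's quasi-likelihood test. At 5 µg/ml it was -0.40 with an interval of -0.96 to 0.16 (edgeR's quasi-likelihood test, adjusted p = 0.675).

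ITGB8 (ENSG00000105855; chromosome 7, 20329766 to 20415754), another β subunit that pairs with αv alone, was low in both controls. It was the 1 member above its control in every library at the higher dose of each agent. It stood at 28.1 and 28.5 CPM at 2.15 µM VT107 and at 28.3 and 20.1 CPM at 0.1 µM, against 4.29 and 18.4 CPM in DMSO. Both doses lay above both DMSO libraries, which themselves rested on only 4 and 19 counts. It stood at 36.9, 37.9 and 35.9 CPM at 5 µg/ml intetumumab and at 6.73, 23.2 and 20.9 CPM at 1.5 µg/ml, against 10.9, 15.2 and 23.8 CPM with the isotype. The libraries at 5 µg/ml were above every isotype library, and those at 1.5 µg/ml overlapped with them. The log2 fold change at 5 µg/ml was 1.12 ± 0.47 (SE) against the isotype, with an interval of 0.10 to 2.15 and an unadjusted p of 0.0326, and it did not pass (edgeR's quasi-likelihood test, adjusted p = 0.496). Against 1.5 µg/ml it was 1.12 with an interval of 0.09 to 2.16 (edgeR's quasi-likelihood test, adjusted p = 0.846). At 2.15 µM VT107 it was 1.30 ± 0.66 (SE) with an interval of -0.22 to 2.82 (edgeR's quasi-likelihood test, adjusted p = 0.518). That value moved to 0.63 without replicate 1 of DMSO and to 2.69 without replicate 2.

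ITGA2 (ENSG00000164171; chromosome 5, 52989352 to 53094779), the collagen-binding α2 subunit, had the largest difference of any member under VT107. It stood at 63.3 and 58.6 CPM at 2.15 µM and at 86.0 and 114 CPM at 0.1 µM, against 181 and 271 CPM in DMSO. The 3 groups did not overlap, with 2.15 µM the lowest and DMSO the highest. At 2.15 µM the level was 3.70-fold lower, a log2 fold change of -1.89 ± 0.31 (SE) with an interval of -2.59 to -1.18. The unadjusted p was 0.000275, among the lowest 0.317% of the genes tested, and the adjusted p was 0.0846, which missed the threshold (edgeR's quasi-likelihood test). At 0.1 µM the log2 fold change was -1.18 ± 0.31 (SE) with an interval of -1.88 to -0.47 (edgeR's quasi-likelihood test, adjusted p = 0.251). Between 2.15 µM and 0.1 µM it was -0.71 with an interval of -1.44 to 0.01 (edgeR's quasi-likelihood test, adjusted p = 0.947).

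The call for ITGA2 depends on the tool. With DESeq2 in place of edgeR it was called at 2.15 µM (log2 fold change -1.91, adjusted p = 5.04e-05) and at 0.1 µM (log2 fold change -1.19, adjusted p = 0.0486), and edgeR without its filter on low counts called it at 2.15 µM (adjusted p = 0.00171). Over the alternatives that kept all libraries, the log2 fold change at 2.15 µM lay between -1.91 and -1.73. Each library left out in turn gave -2.14 to -1.57 and adjusted p-values of 0.101 to 0.682. RefSeq lists antisense genes of ITGA2 and of ITGA6, and no source used here states whether counting used strand. Whether reads of the antisense genes were kept apart from those of ITGA2 and ITGA6 is therefore not known.

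Under intetumumab ITGA2 was a low gene with overlapping groups. It stood at 16.1, 29.8 and 35.9 CPM at 5 µg/ml and at 24.2, 27.8 and 16.7 CPM at 1.5 µg/ml, against 43.7, 26.2 and 35.6 CPM with the isotype. The log2 fold change at 5 µg/ml was -0.33 with an interval of -1.16 to 0.50 (edgeR's quasi-likelihood test, adjusted p = 0.825). The effect of 2.15 µM VT107 minus that of 5 µg/ml intetumumab, each against its own control, was -1.56 ± 0.48 (SE) on the log2 scale with an interval of -2.58 to -0.54, and this difference did not pass (edgeR's quasi-likelihood test, adjusted p = 0.324).

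ITGA3 (ENSG00000005884; chromosome 17, 50056110 to 50090481), a laminin-binding α subunit, was also lower under VT107 in every library. It stood at 111 and 160.4 CPM at 2.15 µM and at 113 and 96.7 CPM at 0.1 µM, against 240.4 and 216 CPM in DMSO. The DMSO libraries were above all 4 VT107 libraries, and the 2 doses overlapped with each other. For ITGA3 the log2 fold change was -0.75 ± 0.27 (SE) at 2.15 µM with an interval of -1.38 to -0.12, and -1.12 ± 0.28 (SE) at 0.1 µM with an interval of -1.76 to -0.47. Neither passed edgeR's quasi-likelihood test (adjusted p = 0.346 and 0.235), while DESeq2 called the difference at 0.1 µM (log2 fold change -1.13, adjusted p = 0.0367). At 5 µg/ml intetumumab ITGA3 stood at 27.6, 54.1 and 74.3 CPM and at 1.5 µg/ml at 65.9, 112 and 77.2 CPM, against 95.7, 62.1 and 105 CPM with the isotype. The lowest value was that of the shallowest library, and the groups overlapped. The log2 fold change at 5 µg/ml was -0.71 with an interval of -1.48 to 0.06 (edgeR's quasi-likelihood test, adjusted p = 0.560).

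ITGA5 (ENSG00000161638; chromosome 12, 54395261 to 54419266), the α subunit of the main fibronectin receptor, had its lowest VT107-experiment values at the lower dose. It stood at 40.0 and 43.2 CPM at 2.15 µM and at 21.2 and 23.9 CPM at 0.1 µM, against 45.1 and 39.6 CPM in DMSO. The libraries at 0.1 µM lay below the other 4, which overlapped with each other. For ITGA5 the log2 fold change was -0.03 at 2.15 µM (interval -0.86 to 0.80, or 0.13 when scaled by total count) and -0.91 at 0.1 µM (interval -1.79 to -0.02, unadjusted p = 0.0454), and neither passed edgeR's quasi-likelihood test (adjusted p = 0.985 and 0.403). Between 2.15 µM and 0.1 µM it was 0.88 with an interval of 0.01 to 1.75 (edgeR's quasi-likelihood test, adjusted p = 0.939). In the intetumumab experiment it stood at 5.79 to 14.0 CPM over all 9 libraries and did not pass the filter on low counts.

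ITGA6 (ENSG00000091409; chromosome 2, 172427336 to 172506459), another laminin-binding α subunit, stood at 35.2 and 43.2 CPM at 2.15 µM VT107 and at 58.9 and 51.5 CPM at 0.1 µM, against 44.0 and 78.3 CPM in DMSO. The 2 libraries at 2.15 µM were the lowest of the 6, just under the lower DMSO library. It stood at 92.2, 73.0 and 64.0 CPM at 5 µg/ml intetumumab and at 53.8, 55.6 and 54.3 CPM at 1.5 µg/ml, against 65.6, 60.8 and 84.2 CPM with the isotype. The libraries at 1.5 µg/ml were below all others of that experiment. For ITGA6 the log2 fold change was -0.65 at 2.15 µM (interval -1.55 to 0.26), 0.10 at 5 µg/ml (interval -0.44 to 0.64) and -0.37 at 1.5 µg/ml (interval -0.91 to 0.18), and none passed edgeR's quasi-likelihood test (adjusted p = 0.601, 0.932 and 0.960).

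**Figure D2:**
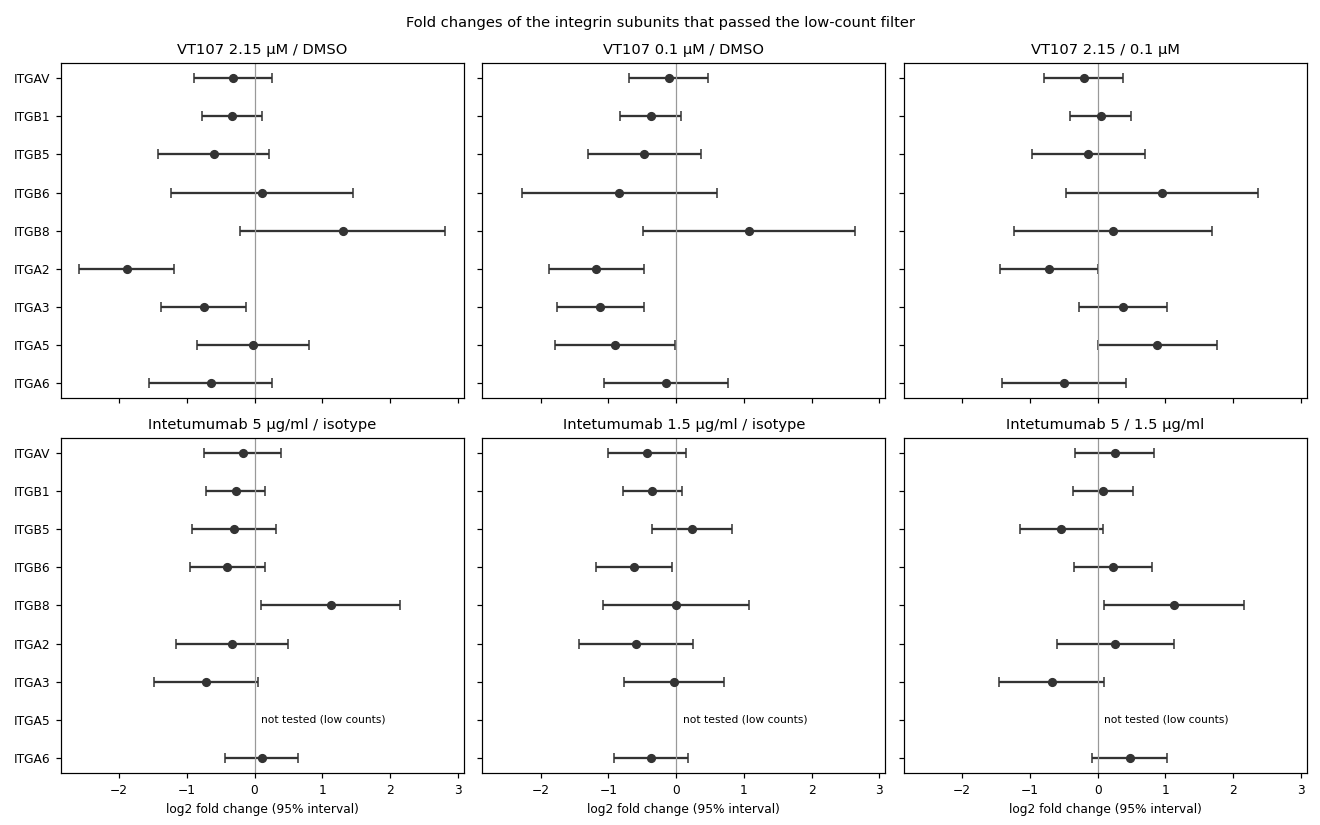
Log2 fold changes (points) with 95% intervals (bars) of the integrin subunits that passed the low-count filter, for each agent and dose against its control and for the higher dose against the lower. Against the controls, the intervals of ITGA2 and ITGA3 at both VT107 doses, ITGA5 at 0.1 µM, ITGB8 at 5 µg/ml and ITGB6 at 1.5 µg/ml lie to 1 side of 0. Between doses those of ITGA5 (VT107) and ITGB8 (intetumumab) do so, and no member passed after adjustment over all genes.

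Counted over members, edgeR's quasi-likelihood test called 0 at 2.15 µM VT107 against DMSO, where 9 were tested and it called 0.109% of 10083 genes. DESeq2 gave an adjusted p to 5 of the 9 and called 1 (ITGA2), and of the 3837 genes to which it gave one it called 6.07%. At an unadjusted p under 0.05, 2 members were lower (ITGA2 and ITGA3) and 0 higher, beside 6.30% of genes lower and 5.28% higher. Groups did not overlap for 7 of the 9, with 1 higher and 6 lower, beside 24.1% of all genes higher and 20.6% lower. The members' median log2 fold change was -0.33, and that of all genes tested was 0.03.

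At 0.1 µM VT107 against DMSO edgeR's quasi-likelihood test called 0 of 9 members and 0% of 10083 genes, and DESeq2 called 2 of the 6 members to which it gave an adjusted p (ITGA2 and ITGA3) and 4.06% of the 4364 such genes. At an unadjusted p under 0.05, 3 members were lower (ITGA2, ITGA3 and ITGA5) and 0 higher, beside 6.11% of genes lower and 5.98% higher. Groups did not overlap for 1 higher member and 5 lower ones, beside 20.4% of all genes higher and 19.3% lower. The median was -0.47 over the members and 0.01 over all genes. Both doses share the DMSO libraries, so these counts are not independent of each other. Between 2.15 µM and 0.1 µM edgeR's quasi-likelihood test called 0 of 9 members and 0% of genes. There, 1 member was higher (ITGA5) and 0 lower at an unadjusted p under 0.05, beside 2.54% and 2.76% of genes, and DESeq2 called 0 of 9 members and 0.0442% of genes. Groups did not overlap for 1 higher member (ITGA5) and 2 lower ones (ITGA2 and ITGA6), beside 20.1% of genes higher and 19.0% lower. The median was 0.04 over the members and -0.01 over all genes.

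At 5 µg/ml intetumumab against the isotype edgeR's quasi-likelihood test called 0 of 8 members and 0.0887% of 9024 genes. DESeq2 gave an adjusted p to only 3 of the 8 (ITGAV, ITGB1 and ITGB6), called 0 of them and called 3.4% of the 3029 such genes. At an unadjusted p under 0.05, 1 member was higher (ITGB8) and 0 lower, beside 4.33% of genes higher and 4.90% lower. Groups did not overlap for 1 higher member (ITGB8) and 1 lower (ITGB5), beside 7.64% of all genes higher and 8.26% lower. The median was -0.29 over the members and 0.0035 over all genes. At 1.5 µg/ml the test called 0 of 8 members and 0% of genes, with 1 member lower (ITGB6) and 0 higher at an unadjusted p under 0.05, beside 3.07% and 2.40% of genes. Groups did not overlap for 0 higher and 2 lower members (ITGB6 and ITGA6), beside 5.62% of genes higher and 6.72% lower, and the medians were -0.36 for the members and 0.01 for all genes. DESeq2 gave an adjusted p to only 2 of the 8 there (ITGAV and ITGB1), called 0 of them and called 2.07% of the 1983 such genes. Between 5 µg/ml and 1.5 µg/ml edgeR's quasi-likelihood test called 0 of 8 members and 0.0111% of genes, DESeq2 called 0 of 8 members and 0.00741% of genes, and 1 member (ITGB8) was higher and 0 lower at an unadjusted p under 0.05, beside 2.69% and 2.95% of genes. Groups did not overlap for 2 higher members (ITGB8 and ITGA6) and 1 lower (ITGB5), beside 5.42% of genes higher and 5.34% lower. The median was 0.24 over the members and -0.0040 over all genes.

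The effect of 2.15 µM VT107 minus that of 5 µg/ml intetumumab was tested for 9 members, and edgeR's quasi-likelihood test called 0 of them and 0.0782% of 10227 genes. ITGA5 passed the low-count filter over the 15 libraries but not over the intetumumab libraries alone, where it had 4 to 13 counts, so its difference rests on low counts. DESeq2 called 0 of the 7 members to which it gave an adjusted p and 1.49% of the 7041 such genes. By edgeR 1 member (ITGA2) had an unadjusted p under 0.05 with a lower effect under VT107, beside 4.18% of genes, and 0 had one with a higher effect, beside 4.89%. For ITGAV the difference was -0.13 on the log2 scale with an interval of -0.98 to 0.71, and for ITGB8 it was 0.18 with an interval of -1.51 to 1.88. These intervals are wide beside the effects themselves.

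Read as shares of the 5 α genes' counts, which need no scaling between libraries, ITGAV was higher and ITGA2 lower at 2.15 µM VT107 than in DMSO. A share is relative to the other genes of the set, and the level of ITGAV itself was lower there (log2 fold change -0.32), as were those of ITGA2 (-1.89) and ITGA3 (-0.75). This share was chosen after the values were seen and is given as a description. ITGAV made up 43.5% and 44.8% at 2.15 µM and 51.3% and 42.7% at 0.1 µM, against 35.7% and 30.4% in DMSO. ITGA2 made up 14.3% and 10.6% at 2.15 µM and 14.99% and 22.9% at 0.1 µM, against 22.8% and 31.2% in DMSO. The 2.15 µM groups did not overlap with DMSO for either gene, and for ITGA2 1 library at 0.1 µM lay a little above the lower DMSO library. In the intetumumab experiment the share of ITGAV averaged 54.5% ± 3.49 at 5 µg/ml and 48.2% ± 12.5 at 1.5 µg/ml, against 52.6% ± 4.02 with the isotype (SD, n = 3 each). The ranges of these groups overlapped, at 50.8% to 57.7%, 37.0% to 61.7% and 49.9% to 57.2% in that order.

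**Figure D3:**
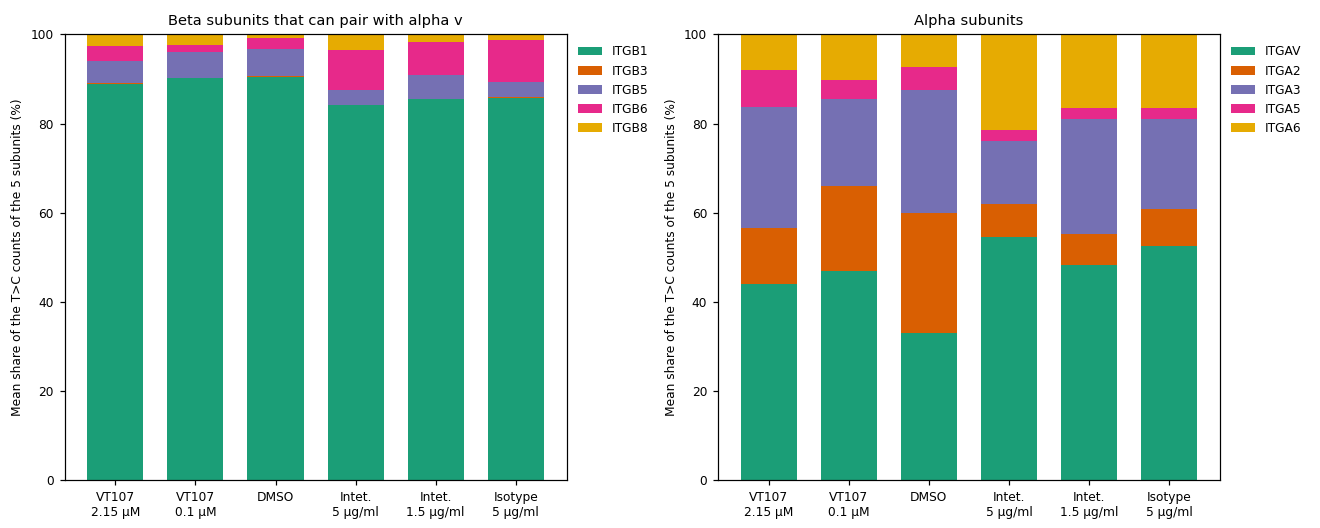
Mean share, in percent, of each β gene among the counts of the 5 αv partners and of each α gene among the counts of the 5 α members, with a stacked bar per group (n = 2 for VT107 and DMSO, n = 3 for intetumumab and isotype). ITGB1 fills most of every β bar, and the ITGAV part of the α bar is smallest in DMSO at 33.0%.

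The controls of the experiments differed for several members, with all 15 libraries on 1 scale. ITGA2 averaged 229 ± 60.2 CPM in DMSO and 34.6 ± 8.61 CPM with the isotype (SD, n = 2 and n = 3), a ratio of 6.62, and ITGA5 had a ratio of 4.11 and ITGA3 one of 2.69. ITGB6 ran the other way, at 33.0 CPM in DMSO and 117 CPM with the isotype, while ITGAV was at 278 and 220 CPM. Experiment and control agent cannot be told apart here, so these values are a description with no test.

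Counts of the members without thiouridine were few. In the unlabelled library of the VT107 experiment ITGB1 had 11 counts, ITGAV 6, ITGA3 4 and ITGA2 3, and the other members had 0. In that of the intetumumab experiment ITGB1 had 3 counts, ITGB5 and ITGB6 had 1 each, and the other members had 0. The 24 and 5 counts of the 10 genes equal 1.23% and 0.463% of their mean in the labelled libraries of the same experiment, beside 0.949% and 0.628% for all genes. A count of 0 allows up to 3 counts, which is 44.3% of the mean labelled count of ITGA5 in the intetumumab experiment, 18.2% of that of ITGB8 and 14.1% of that of ITGA2 there. For ITGB3 that limit is above the mean labelled count in both experiments. For the other members at 0, ITGA5 and ITGB8 in the VT107 experiment included, it is 2.17% to 11.8%.

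**Figure D4:**
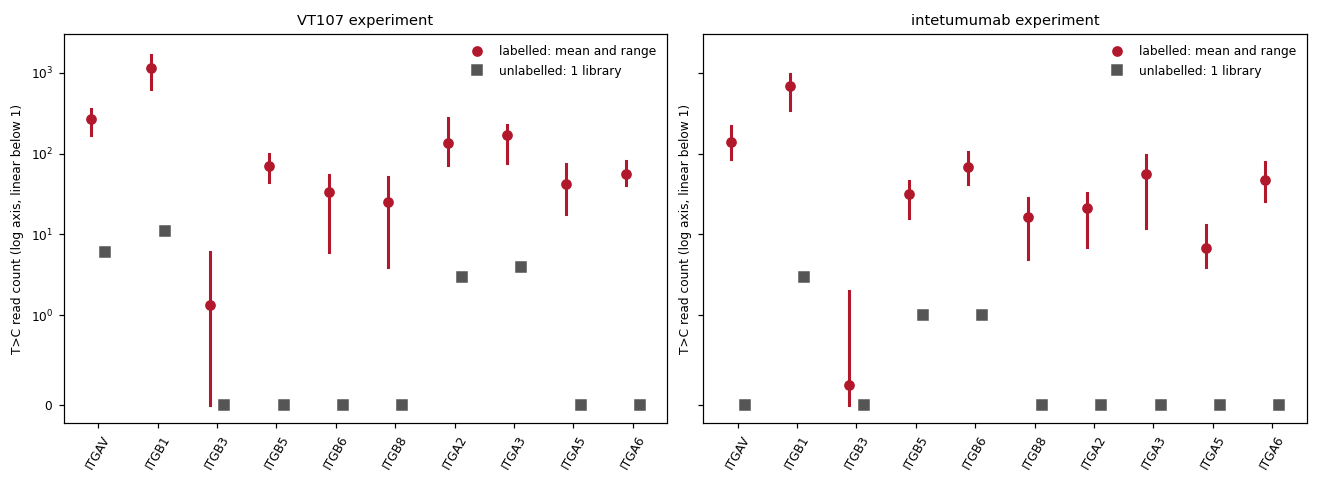
Counts of each integrin subunit in the labelled libraries (circle for the mean, line for the range) and in the 1 unlabelled library (square) of each experiment, on a log axis that is linear below 1. The unlabelled libraries hold at most 11 counts of any member.

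For likeness to ITGAV, each gene's mean within an experiment was first subtracted from its log2 CPM, so differences between the experiments were removed. Over the 15 labelled libraries and 8846 genes, the genes that then tracked ITGAV most closely were ENSG00000164830 (Pearson r = 0.77) and ENSG00000137218 (r = 0.77). Within the VT107 experiment alone these were 0.05 and 0.51, and within the intetumumab experiment 0.87 and 0.85. Among the 7 other members with a value (all but ITGB3 and ITGA5) ITGB1 was nearest to ITGAV over all libraries, with r = 0.54 and rank 188, and ITGB8 was at r = 0.04. The order differed by experiment: in the VT107 experiment ITGB1 was at 0.70 and ITGB8 at -0.40, while in the intetumumab experiment ITGB6 (0.51) was nearer than ITGB1 (0.49), and ITGB5 (-0.07) was below ITGB8 (0.25). These libraries share experiments, scaling and treatments, so the values only describe this table.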

How the data were processed

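QuantSeq 3′-end libraries were prepared from RNA treated with iodoacetamide, per the labels' protocols. The authors deposited unnormalised counts of newly made transcripts per gene, for which the design text of the series names SLAM DUNK. GRCh38 is the build, per the submitters' processing notes. No source used here states the pipeline's version, its annotation, the conversions a read needed or the use of strand. All 17 columns were matched to samples by name, and groups came from the sample titles.

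Each experiment's labelled libraries were fitted together in R 4.3.3 with edgeR 4.0.16: filterByExpr with a minimum count of 10, TMM scaling, the quasi-likelihood F-test (two-sided) and Benjamini-Hochberg adjustment over all genes tested, called at 0.05. The difference between agents was fitted over all 15 labelled libraries. SEs and 95% intervals are Wald values under the quasi-likelihood variance. Likeness to ITGAV used log2 CPM with a prior count of 2, less each gene's mean within its experiment. The model code was tested on simulated data. DESeq2 1.42.0, other scalings, no low-count filter, a replicate block, 2-group fits and leaving out each library were alternatives. DESeq2 was given every gene with a count and applied its own filter in place of filterByExpr.

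All 10 members are named by rule. Members and lists were chosen with earlier results of these data known. Lists of other integrin subunits, adhesion proteins and cell type markers, the check of the labelled cell type included, were not analysed here, because the RefSeq table paired 0 of the identifiers with a symbol.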

Additional observations from a re-analysis of the deposited data

How the results depend on the processing

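No member was called in any fit that left out 1 library (0 to 0 members over 40 fits), nor under the other scalings, the replicate block or the 2-group fits. With 2.15 µM VT107, 1 member (ITGA2) was called without the low-count filter and 1 (ITGA2) with DESeq2, and with 0.1 µM DESeq2 called 2 (ITGA2 and ITGA3). DESeq2 gave an adjusted p to 5 of 9 members at 2.15 µM, 6 of 9 at 0.1 µM, 3 of 8 at 5 µg/ml, 2 of 8 at 1.5 µg/ml and 7 of 9 for the difference of effects, so its counts leave out ITGB8 in these 5 comparisons. Over all genes edgeR called 11 at 2.15 µM, against 5 with total count scaling, 1 with only the 2 groups, 199 without the filter and 233 with DESeq2. At 0.1 µM it called 0, against 171 without the filter and 177 with DESeq2, and between the VT107 doses 0, against 4 and 6. At 5 µg/ml intetumumab it called 8, against 1 with only the 2 groups, 13 without the filter and 103 with DESeq2. At 1.5 µg/ml it called 0, against 1 with only the 2 groups and 41 with DESeq2, and for the difference of effects 8, against 42 without the filter and 105 with DESeq2. Leaving out 1 library gave 1 to 26 at 2.15 µM (26 without replicate 2 of DMSO), 0 to 3 at 5 µg/ml (3 without its replicate 3), 0 to 2 between the antibody doses and 1 to 25 for the difference of effects (25 without replicate 2 of DMSO). The causes were not tested.

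Same-numbered libraries did not deviate together (correlations of -0.015 to 0.006 in the VT107 experiment and -0.024 to 0.065 in the intetumumab experiment). Differently numbered libraries of the intetumumab experiment gave -0.087 to 0.093. With 2 libraries per group, the same-numbered and differently numbered values of the VT107 experiment mirror each other by construction. Counting noise can also hide a pairing, so these values cannot settle whether the numbers pair samples. With a replicate block edgeR called 0 members, and over all genes 5 at 2.15 µM, 1 at 5 µg/ml, 0 between the antibody doses (1 without the block) and 4 for the difference of effects. The block turned the difference for ITGA3 to 0.020.

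Among alternatives that kept all libraries, the other signs that turned were of values near 0. Total count scaling, which moved the median of all genes by 0.16 at 2.15 µM, 0.11 at 0.1 µM and 0.11 for the difference of effects, gave 0.13 for ITGA5 at 2.15 µM, 0.0015 for ITGAV at 0.1 µM, and differences of 0.058 for ITGB1 and 0.080 for ITGA3. ITGB8 at 1.5 µg/ml was 0.028 with total count scaling, 0.0068 with median-ratio size factors in edgeR, 0.0068 with DESeq2 and 0.00029 with only the 2 groups. Scaled over all 15 libraries, ITGB8 stood at 28.8 CPM at 2.15 µM and ITGA6 at 53.5 CPM at 1.5 µg/ml, more than 1 SD from the 28.3 and 54.6 CPM given above.

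Leaving out 1 library turned the sign of 17 log2 values, and a group of 2 cut to 1 was assumed to vary like the others. At 2.15 µM against DMSO ITGB6 ran from -0.22 to 0.42 and ITGA5 from -0.12 to 0.072. At 0.1 µM ITGAV ran from -0.36 to 0.10 and ITGA6 from -0.50 to 0.32. Between VT107 doses ITGAV ran from -0.42 to 0.058, ITGB1 from -0.13 to 0.27 and ITGB5 from -0.43 to 0.13. With intetumumab against the isotype ITGA6 ran from -0.039 to 0.26 at 5 µg/ml, and at 1.5 µg/ml ITGB8 from -0.36 to 0.39 and ITGA3 from -0.30 to 0.13. Between antibody doses ITGB1 ran from -0.21 to 0.24 and ITGB6 from -0.076 to 0.39. For the difference of effects ITGAV ran from -0.32 to 0.044, ITGB1 from -0.22 to 0.24, ITGB8 from -0.50 to 1.54, ITGA3 from -0.31 to 0.31 and ITGA5 from -0.087 to 0.48. Groups of 2 or 3 libraries and the few counts of ITGB8 and ITGA5 left wide intervals, and ITGB3 had too few counts for a fold change.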
